A study of Cavia porcellus with 9 samples.

Results

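Retinas of guinea pigs reared under coloured light, green or blue, were compared with retinas reared under white light. The contrast used all 9 libraries of the series, 6 on the coloured side (3 green and 3 blue) and 3 on the white side, and 15469 of the 19962 genes in the deposited count table, those with enough counts to be tested. It is the mean of the green and blue groups minus the white group on the log2 scale, so each light weighs equally. A gene that differs from white in opposite directions under green and blue light cancels out in this contrast.

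The animals were male tri-color Dunkin-Hartley guinea pigs (Cavia porcellus), 2 weeks old when obtained and 12 weeks old according to the sample labels. The green group lived under green light, the blue group under blue light and the white group under white light, each for 8 weeks with 12 hours of light and 12 hours of darkness a day. The labels report no genetic change and no drug in any group. The sources used here do not give the wavelengths and intensities of the lamps or the refraction of the eyes sampled. The study began with 45 animals, but the 9 library titles carry 6 animal labels, 2 per group, so in each group 2 of the 3 libraries share an animal label. The green pair, 11od-B and 11od, also shares the eye code od. The blue pair (32od and 32os) and the white pair (6od and 6os) carry both eye codes. Whether the green pair came from the same retina is not given.

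The guinea pig retina has rods and cones of a short-wavelength and a middle-wavelength type, so green and blue light drive its cone types unequally, whereas white light reaches both. Light of different wavelengths also focuses at different depths of the eye, and the retina uses such focus signals when it sends growth signals through the pigment epithelium and choroid to the sclera. Dopamine, retinoic acid, vasoactive intestinal peptide and the immediate early gene Egr1 are known from chickens and mammals as parts of that pathway. The series title names wavelength defocus and refractive development. The comparison with white light asks how the mean of the coloured lights differs from white. A change under green or blue light alone also enters that mean, so a difference need not be shared by both lights.

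The libraries held 62155041 to 74979806 counts, with 15871 to 16145 genes detected in each. Their label as retina was matched by their genes: cone genes summed to 3877 to 4314 CPM in the coloured libraries and 3924 to 4336 CPM in the white libraries, and bipolar cell genes to 2291 to 2491 CPM in the coloured and 2361 to 2448 CPM in the white libraries (CPM, a gene's counts relative to the library total after TMM scaling). The mean correlation of log2 levels across genes was 0.9792 between a coloured and a white library, 0.9797 between a green and a blue library and 0.9807 within a light group. These values run across genes, and genes are not replicates. Because libraries of a group share animal labels, the spread behind each p-value is in part that between samples of the same animal. In whole retina, fewer cells of a type and less RNA per cell cannot be told apart.

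A single gene passed the test threshold, and it was higher under coloured light. LOC101788254, a protein-coding locus with no gene symbol, passed edgeR's quasi-likelihood test at a Benjamini-Hochberg adjusted p under 0.05, 1 of 15469 genes or 0.00646%. It had 65, 104 and 123 counts in green libraries 1 to 3, 81, 119 and 108 counts in blue libraries 1 to 3, and 0 counts in each of the 3 white libraries. Every coloured library held it and no white library did. Its level was 0.834, 1.62 and 1.75 CPM under green light, 1.14, 1.61 and 1.58 CPM under blue light, and 0 CPM under white light. Over the 6 coloured libraries the mean was 1.42 ± 0.358 CPM (SD, n = 6), at least 94.6-fold higher than the 0.0151 CPM that 3 counts over the whole white group would give (edgeR adjusted p = 0.0105). That bound takes a count as a fragment; low counts in the table favour multiples of 4, and if 4 counts stand for a fragment the bound is 23.6-fold. Green and blue did not pass the test against each other for it, with a log2 difference of -0.04 ± 0.38 (SE; edgeR adjusted p = 0.986). The locus has no annotated role in the files used, and reads from near-identical copies elsewhere in the genome could have been assigned to it, which was not tested.

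This call rested on the choice of test and of libraries. It was lost with limma's voom (adjusted p = 0.188), after dividing the counts by 4 (0.0918) and without blue library 2 (0.0579), and it was kept when libraries were summed per animal label (0.0347). The number of genes called was 0 without blue library 2, 2 without blue library 1 or white library 1, 3 without blue library 3 or white library 2, and 7 without white library 3. It was 10 without both libraries whose titles end in "-B", and 9 without both libraries whose titles contain R-23. White library 3 is in both of these pairs. Without it the white side held only white libraries 1 and 2, which share an animal label. The fits with 7, 10 and 9 calls thus held no spread between white animals. DESeq2's Wald test called 25 genes, 0.162% of those tested, 18 higher and 7 lower under coloured light, with LOC101788254 among them.

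**Figure D1:**
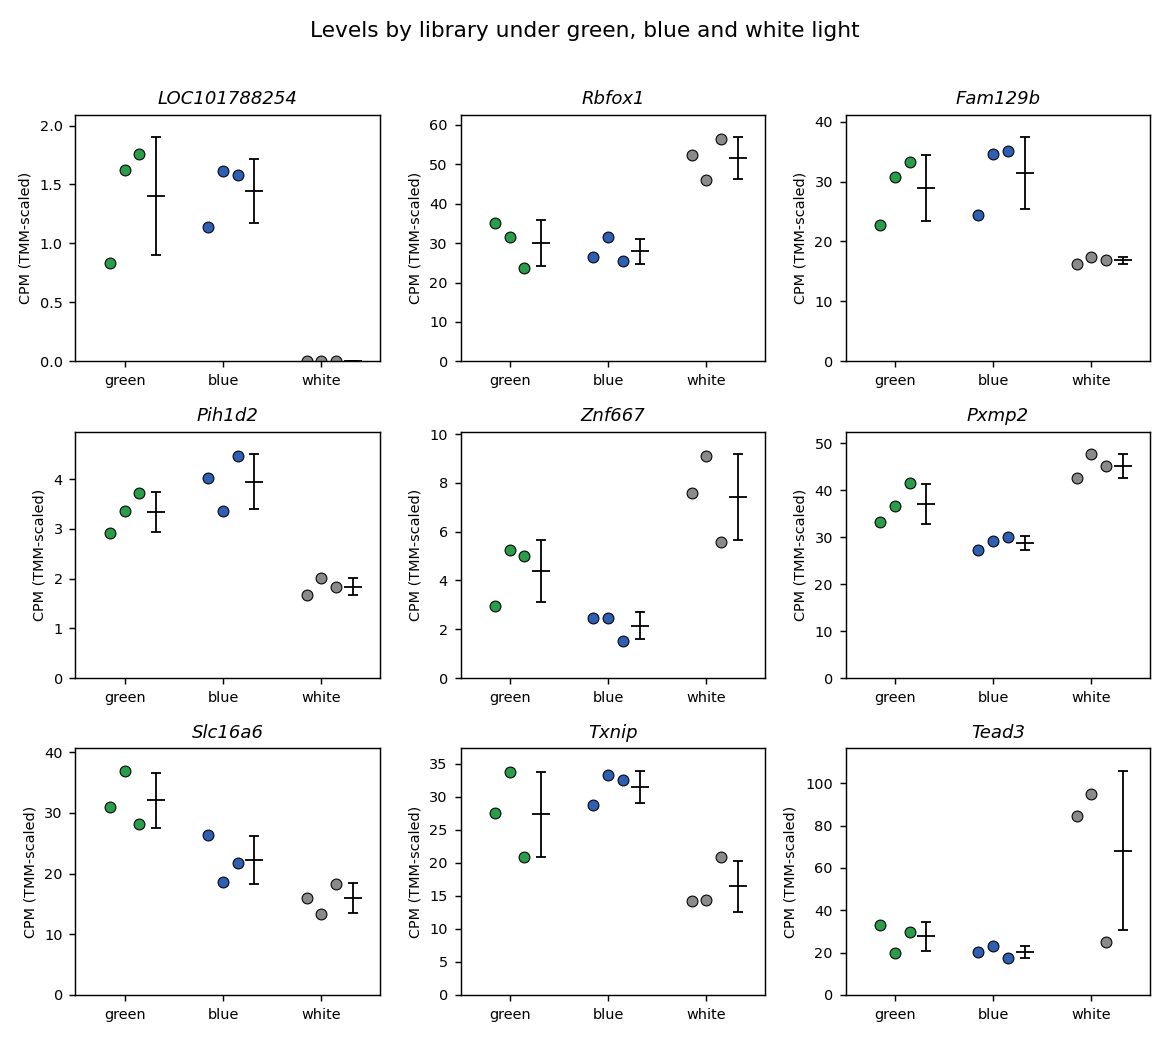
Levels (CPM scaled by TMM, linear axis from 0) of 9 genes in green, blue and white libraries, in library order 1 to 3 within a group; points are libraries and bars the mean ± SD of 3 libraries. The coloured libraries of LOC101788254 sit between 0.834 and 1.75 CPM and all white libraries at 0, while the sides overlap for Txnip (green library 3 against white library 3) and for Tead3 (white library 3 within the coloured range).

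Across the other genes the shift was small. The median log2 difference of all 15469 genes was 0.00, with 7881 genes on the higher and 7588 on the lower side, and the 5th and 95th percentiles were -0.31 and 0.41. With an unadjusted p under 0.05 there were 682 genes, or 4.41%: 428 higher (2.77%) and 254 lower (1.64%) under coloured light. All 6 coloured libraries lay outside the range of the 3 white libraries for 359 genes (2.32%), above it for 224 (1.45%) and below it for 135 (0.873%). The 682 genes had a median absolute log2 difference of 0.37 and were not of low abundance: their median level was 15.1 CPM, against 19.8 CPM for all genes tested, and 12.6% of them were numbered loci without a symbol, against 10.5% of all genes. The plot of p against size shows LOC101788254 apart from the rest.

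**Figure D2:**
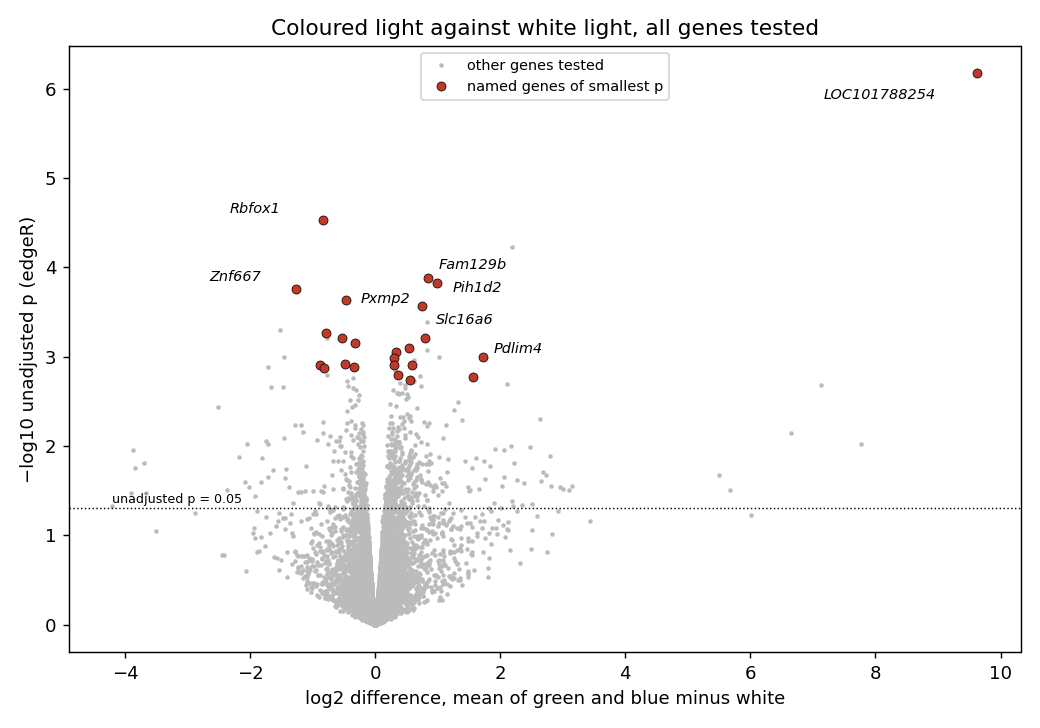
Each point is a gene, with the log2 difference of the coloured mean minus white on the horizontal axis and the negative log10 of the unadjusted edgeR p on the vertical axis. LOC101788254 stands alone at the top right (its horizontal place depends on the prior count, since white is 0). The red points are the 24 genes named by the call or by smallest p among genes without overlap. Named genes with overlap, such as Txnip, are not red.

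Named genes next in rank did not pass edgeR's threshold, and their values follow as a description. Of 23 such genes, 13 had the higher mean under coloured light and 10 under white light, and their libraries did not overlap, which was one of the criteria by which they were chosen. DESeq2's test called 15 of the 24 genes that include LOC101788254.

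Rbfox1 had the smallest p among them. It encodes an RNA-binding protein that controls alternative splicing in neurons, and it is also a locus named in human studies of refractive error. It was at 35, 31.5 and 23.8 CPM under green light, 26.6, 31.6 and 25.5 CPM under blue light, and 52.3, 46 and 56.5 CPM under white light. The 6 coloured libraries all lay below the 3 white ones, by a wide gap. Means were 29.0 ± 4.35 CPM under coloured light (SD, n = 6) and 51.6 ± 5.29 CPM under white light (SD, n = 3), a log2 difference of -0.83 ± 0.12 (SE; edgeR adjusted p = 0.228; DESeq2 adjusted p = 1.52e-06). Green differed from white by -0.78 and blue by -0.89 on the log2 scale. The other splicing regulator of the 30 tested that had an unadjusted p under 0.05, the neuronal Srrm4, was at -0.18 ± 0.08, and 17 of the 30 lay on the higher side, with a median of 0.01.

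Of the other genes with lower means under coloured light, Znf667, a zinc-finger protein, was at 2.95, 5.27 and 5.01 CPM under green light, 2.47, 2.45 and 1.51 CPM under blue light, and 7.57, 9.1 and 5.58 CPM under white light. Green lay between blue and white for it, with no coloured library reaching a white one. The log2 difference was -1.27 ± 0.23 (edgeR adjusted p = 0.446), -0.75 for green and -1.79 for blue. Pxmp2, a channel of the peroxisomal membrane, was at 33.2, 36.7 and 41.7 CPM under green light, 27.3, 29.2 and 30.2 CPM under blue light, and 42.5, 47.7 and 45.2 CPM under white light. Its coloured mean of 33.0 ± 5.37 CPM stood against 45.2 ± 2.6 CPM under white light (SD, n = 6 and n = 3), a log2 difference of -0.46 ± 0.09 (edgeR adjusted p = 0.508).

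Odf3, a protein of the sperm tail and other axonemes, averaged 16.4 ± 4.08 CPM under coloured light and 28.1 ± 1.28 CPM under white light (SD, n = 6 and n = 3). Creld2, an endoplasmic reticulum protein induced by folding stress, averaged 28.1 ± 2.63 CPM under coloured light and 40.4 ± 6.29 CPM under white light. Urm1, a ubiquitin-like protein that thiolates transfer RNA, averaged 68.9 ± 4.25 CPM under coloured light and 85.7 ± 4.85 CPM under white light. The spread of Creld2 came mostly from white library 3 at 33.2 CPM, against 44.9 and 43.1 CPM in the other white libraries. Fndc1, a protein with fibronectin domains, averaged 1.26 ± 0.187 CPM under coloured light and 2.32 ± 0.331 CPM under white light. The ribosome-biogenesis gene Grwd1, Pgghg, which acts on sugars attached to collagen, and the tubulin gene Tuba8 completed the lower set, with log2 differences of -0.34, -0.48 and -0.82. Their edgeR adjusted p was 0.689.

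Higher under coloured light was Fam129b, also called Niban2. It was at 22.7, 30.7 and 33.3 CPM under green light, 24.4, 34.7 and 35 CPM under blue light, and 16.2, 17.4 and 16.9 CPM under white light. The white libraries lay close together and each coloured library above them. Means of 30.1 ± 5.34 CPM under coloured light and 16.8 ± 0.620 CPM under white light (SD, n = 6 and n = 3) gave a log2 difference of 0.84 ± 0.15 (edgeR adjusted p = 0.446). Pih1d2, of a protein family that assembles axonemal dyneins, was at 2.92, 3.37 and 3.72 CPM under green light, 4.03, 3.36 and 4.46 CPM under blue light, and 1.67, 2.01 and 1.83 CPM under white light. Its log2 difference was 0.98 ± 0.17 (edgeR adjusted p = 0.446), and no library of one side reached the other. Slc16a6, of the monocarboxylate transporter family, was at 31, 36.9 and 28.2 CPM under green light, 26.4, 18.6 and 21.7 CPM under blue light, and 16, 13.4 and 18.3 CPM under white light. Blue library 2 lay just above white library 3, and the log2 difference was 0.75 ± 0.14 (edgeR adjusted p = 0.529).

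Ddo, which oxidises D-aspartate, averaged 4.82 ± 0.809 CPM under coloured light and 2.75 ± 0.477 CPM under white light (SD, n = 6 and n = 3). Cndp1, a dipeptidase that cleaves carnosine, averaged 8.80 ± 0.642 CPM under coloured light and 6.06 ± 0.506 CPM under white light. The Polycomb protein Cbx7 averaged 158 ± 23.1 CPM under coloured light and 105 ± 20.4 CPM under white light. The actin-associated Pdlim4 had the largest log2 difference of the 13, 1.72 ± 0.39, at low levels: 2.39 ± 0.770 CPM under coloured light and 0.718 ± 0.362 CPM under white light. Ttc16, with a log2 difference of 1.56 ± 0.38, was likewise low, at 1.21 ± 0.323 CPM under coloured light and 0.408 ± 0.2 CPM under white light. Smaller differences at higher levels, of 0.30 to 0.56 on the log2 scale, were seen for Ip6k3, an inositol hexakisphosphate kinase, Lhfpl5, a part of the mechanotransduction complex of hair cells, Tdrkh, of the piRNA pathway, the kinase Prkd1 and Erich6. Ip6k3 averaged 102 ± 5.76 CPM under coloured light and 82.8 ± 3.93 CPM under white light, and Lhfpl5 averaged 60.4 ± 3.57 CPM and 49.0 ± 0.807 CPM.

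The green and blue components of the contrast share the white libraries, so their likeness is no independent result, but they can be read side by side. The components were of similar size for genes such as Tdrkh (0.32 for green and 0.35 for blue), Cndp1 (0.49 and 0.58) and Pgghg (-0.46 and -0.50). Tuba8 and Slc16a6 were further from white under green light, at -1.26 for green against -0.39 for blue and 1.01 for green against 0.48 for blue. Znf667 and Pxmp2 were further from white under blue light. The direct green minus blue test called 0 of 15469 genes, 0%, in edgeR, with 1110 genes (7.18%) at an unadjusted p under 0.05, and DESeq2 called 41. The log2 difference of green minus blue was 1.04 ± 0.28 for Znf667, 0.36 ± 0.10 for Pxmp2, 0.53 ± 0.16 for Slc16a6 and -0.87 ± 0.23 for Tuba8 (SE; edgeR adjusted p from 0.578 to 0.619).

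**Figure D3:**
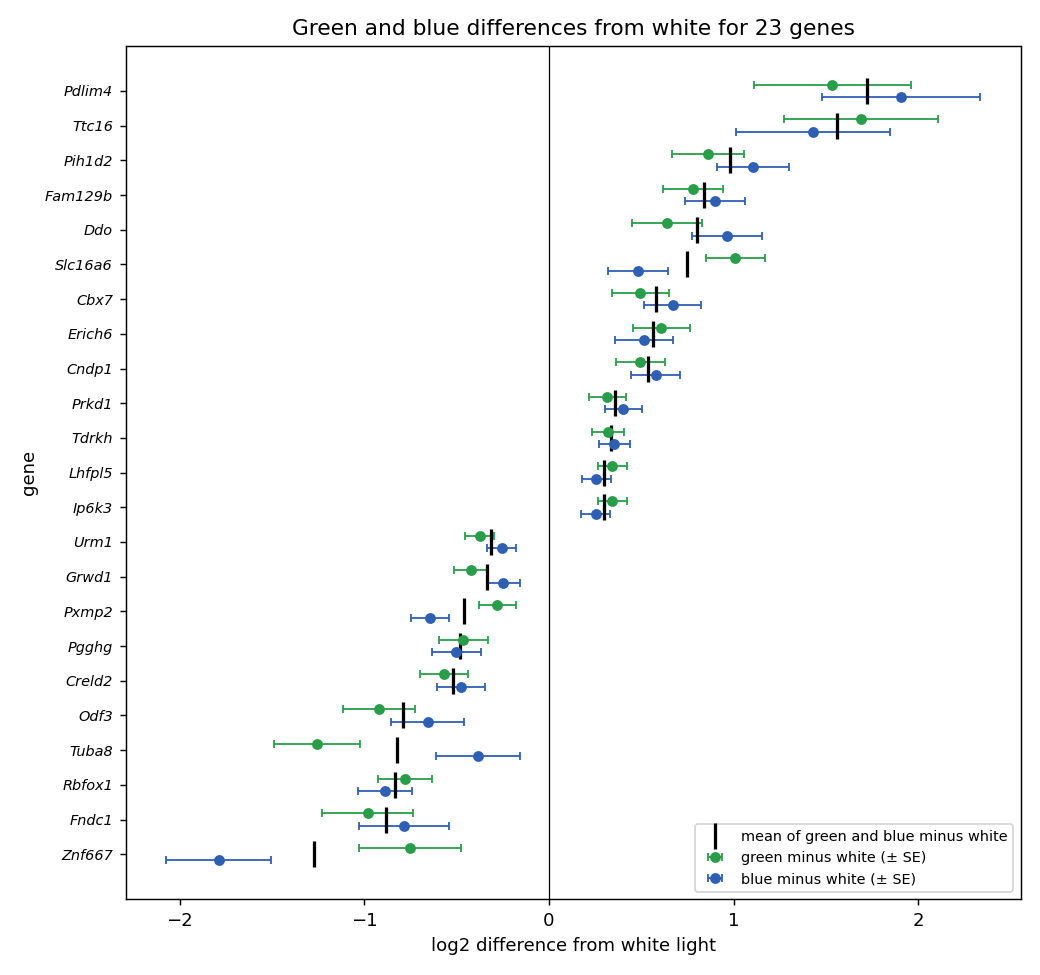
Log2 difference from white light (horizontal axis) of 23 genes, with green minus white and blue minus white as points ± SE and their mean as a black bar. All 23 genes have both components on the same side of 0, which their choice by no overlap fixed in advance. The widest gaps are for Znf667, Tuba8 and Slc16a6.

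For some genes of low p, part of a side set the mean. Txnip, which binds thioredoxin and restrains glucose uptake, was at 27.4, 33.7 and 20.8 CPM under green light, 28.7, 33.3 and 32.5 CPM under blue light, and 14.1, 14.3 and 20.9 CPM under white light. Green library 3 and white library 3 met, so the sides overlapped. Its log2 difference was 0.83 ± 0.17 (edgeR adjusted p = 0.689; DESeq2 adjusted p = 0.000818). Tead3, a transcription factor of the Hippo pathway, was at 33.2, 19.9 and 29.9 CPM under green light, 20.3, 23.3 and 17.5 CPM under blue light, and 84.7, 94.9 and 25.1 CPM under white light. White libraries 1 and 2 carry the same animal label, and white library 3 lay within the coloured range. Tead3's log2 difference of -1.52 ± 0.31 had an edgeR adjusted p of 0.689. Without white library 3 the edgeR adjusted p was 0.00202. The white side then held 1 animal label only, so that p measured no spread between white animals. Myo15b, a myosin of the group with Usher genes, was at 13.3, 17.1 and 10.1 CPM under green light, 4.57, 5.68 and 5.69 CPM under blue light, and 5.07, 3.86 and 5.31 CPM under white light. Its green libraries lay above all others, with a green minus blue difference of 1.34 ± 0.21 on the log2 scale (edgeR adjusted p = 0.333).

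Genes of known retinal roles were then followed in 40 lists, and in edgeR none of their members was called. The percentages of all genes at an unadjusted p under 0.05 given above serve as the background to each count. Lists are given by how many tested members lay higher and by their median log2 difference, which over all genes were 50.9% and 0.00.

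No gene of light detection had its RNA level called as different in edgeR. Of 22 rod genes, 14 lay higher under coloured light, with a median log2 difference of 0.06, and 1 had an unadjusted p under 0.05. That gene was Nr2e3, a nuclear receptor that sets rod identity, at 364, 505 and 526 CPM under green light, 406, 482 and 433 CPM under blue light, and 345, 346 and 318 CPM under white light. No coloured library fell as low as a white one, and the means were 453 ± 62.3 CPM under coloured light and 336 ± 16.2 CPM under white light (SD, n = 6 and n = 3; log2 difference 0.43 ± 0.11; edgeR adjusted p = 0.715). Of 13 cone genes, 7 lay higher, with a median of 0.01, and 2 had an unadjusted p under 0.05. Opn1sw, the short-wavelength cone pigment, averaged 620 ± 50.4 CPM under coloured light and 572 ± 15.7 CPM under white light, and Opn1mw, the middle-wavelength pigment, averaged 637 ± 53.3 CPM under coloured light and 684 ± 61.3 CPM under white light. Their log2 differences were 0.11 ± 0.07 and -0.10 ± 0.08 (edgeR adjusted p = 0.999 for both), and the sides overlapped. Cngb3, a cone channel subunit, differed by 0.44 ± 0.16, with 0.75 for green and 0.12 for blue, and Thrb, which sets cone type, by 0.26 ± 0.11. Opn4, melanopsin, averaged 9.17 ± 2.81 CPM under coloured light and 7.24 ± 2.74 CPM under white light, and 9 of 13 melanopsin and other non-visual opsin genes lay higher, with a median of 0.11. Rrh, an opsin of the pigment epithelium, differed by 0.26 ± 0.13. In the retinoid cycle, 7 of 15 genes lay higher, with a median of 0.00, from -0.11 for green minus white to 0.18 for blue minus white. Rdh8, the photoreceptor retinol dehydrogenase, differed by -0.18 ± 0.07 while Rbp4, the retinol carrier, differed by 0.64 ± 0.21.

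Genes of signals tied to eye growth were likewise not called in edgeR. Of 29 growth-signal genes, 14 lay higher and 15 lower, with a median log2 difference of 0.00, and 2 had an unadjusted p under 0.05. Vipr2, the receptor of vasoactive intestinal peptide, was at 28.8, 31.7 and 31.9 CPM under green light, 29.4, 28.7 and 38.3 CPM under blue light, and 22.1, 25.4 and 26.3 CPM under white light. Its libraries did not overlap, and the log2 difference was 0.35 ± 0.11 (edgeR adjusted p = 0.968). The peptide's own gene, Vip, overlapped: 5.41, 2.34 and 5.46 CPM under green light, 1.63, 1.98 and 1.97 CPM under blue light, and 1.3, 1.56 and 3.49 CPM under white light. Igfbp5, which binds insulin-like growth factors, had each green library above all others: 351, 264 and 483 CPM under green light, 228, 178 and 169 CPM under blue light, and 168, 203 and 199 CPM under white light. Its log2 difference of 0.48 ± 0.17 was the mean of 0.95 for green and 0.01 for blue. Gcg, the glucagon gene, had 0 counts in every library and was not tested.

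Dopamine genes lay higher in 7 and lower in 9 of 16 cases, with a median log2 difference of -0.06 and no member at an unadjusted p under 0.05. Th, the rate-limiting enzyme of dopamine synthesis, averaged 34.4 ± 7.41 CPM under coloured light and 28.6 ± 3.43 CPM under white light (SD, n = 6 and n = 3), a log2 difference of 0.26 ± 0.18. The receptor Drd1 averaged 47.0 ± 4.19 CPM under coloured light and 41.5 ± 1.98 CPM under white light. Retinoic acid genes lay higher in 8 of 14 cases, with a median of 0.03, and the receptor Rarg differed by 0.16 ± 0.08. The synthetic enzyme Aldh1a2 was too low to test, with 0, 8 and 7 counts under green light, 0, 4 and 0 counts under blue light, and 17, 5 and 0 counts under white light. The circadian clock divided evenly, 11 higher and 11 lower with a median of 0.00, and Per1, a light-responsive clock gene, averaged 140 ± 14.8 CPM under coloured light and 139 ± 6.36 CPM under white light. Of 22 immediate early genes, 10 lay higher, with a median of -0.03. Egr1 averaged 23.4 ± 12.0 CPM under coloured light and 21.5 ± 3.61 CPM under white light, and Fosb differed by 0.87 ± 0.31 on the log2 scale. Klf4, a transcription factor, differed by -1.44 ± 0.70 at low levels, 0.143 ± 0.146 CPM under coloured light and 0.269 ± 0.101 CPM under white light. The direction of Egr1, of Per1 and of Gjd2, the main neuronal gap-junction gene (log2 difference 0.01 ± 0.07), turned round under some settings. Of 32 genes at human myopia loci, 15 lay higher and 17 lower, with a median of -0.01, and the 4 at an unadjusted p under 0.05 were Rbfox1, Vipr2, P4ha2 and Prss56.

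More genes of hypoxia and angiogenesis lay above white than below it. Of 23 tested, 18 lay higher under coloured light and 5 lower, with a median log2 difference of 0.14, and 8 had an unadjusted p under 0.05, 7 of them higher. Ddit4, which restrains mTOR signalling under stress, was at 118, 111 and 103 CPM under green light, 86, 94.2 and 94.4 CPM under blue light, and 74.3, 86.7 and 80.5 CPM under white light. Every green library lay above every white library, and blue library 1 at 86 CPM lay below white library 2. The log2 difference was 0.32 ± 0.08, with 0.46 for green and 0.18 for blue. Across the list the median was 0.25 for green minus white and 0.05 for blue minus white. Vegfa, the vessel growth factor, averaged 165 ± 31.7 CPM under coloured light and 142 ± 9.72 CPM under white light, with 0.40 for green and 0.00 for blue. Flt1, its receptor on endothelium, went the other way with -0.46 ± 0.14. Of the vascular markers 7 of 14 lay higher, with a median of -0.01, and Kcnj8, a pericyte channel gene, differed by 0.92 ± 0.44. The summed level of 14 vascular markers was 394 to 524 CPM in coloured libraries and 493 to 566 CPM in white libraries, and its part in these values was not tested.

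Of 12 genes of the Txnip and arrestin domain family, 7 lay higher, with a median of 0.02. Arrdc3, a relative of Txnip, averaged 108 ± 27.0 CPM under coloured light and 71.2 ± 19.5 CPM under white light. Glycolysis genes lay higher in 13 of 22 cases, with a median of 0.02, and Pfkp, a phosphofructokinase, was at 469 ± 34.6 CPM under coloured light and 538 ± 22.1 CPM under white light, without overlap. Oxidative phosphorylation genes lay higher in 7 of 17 cases, with a median of -0.01, with Ndufs3 of the first respiratory complex at -0.16 ± 0.08 and Sdha, a succinate dehydrogenase subunit, at 0.12 ± 0.06. The ribosomal protein genes lay higher in 18 of 56 cases, with a median of -0.02 on the log2 scale. That median was -0.11 for green minus white and 0.05 for blue minus white. Rpl12 differed by 0.44 ± 0.12 without overlap and Rpl5 by 0.22 ± 0.11. Outside the lens list, list medians of the log2 difference lay between -0.18 and 0.14. Of 18 interferon and antigen presentation genes, 7 lay higher and 11 lower, with a median of -0.03. Isg15, an interferon-induced ubiquitin-like gene of that list, was low, at 12, 0 and 8 counts under green light, 23, 16 and 12 counts under blue light, and 40, 32 and 32 counts under white light (edgeR adjusted p = 0.999). Rsad2, an antiviral enzyme gene, differed by -1.19 ± 0.59, also at low levels. Gng13, a bipolar-cell G-protein subunit, was at 160 ± 9.72 CPM under coloured light and 185 ± 22.0 CPM under white light.

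**Figure D4:**
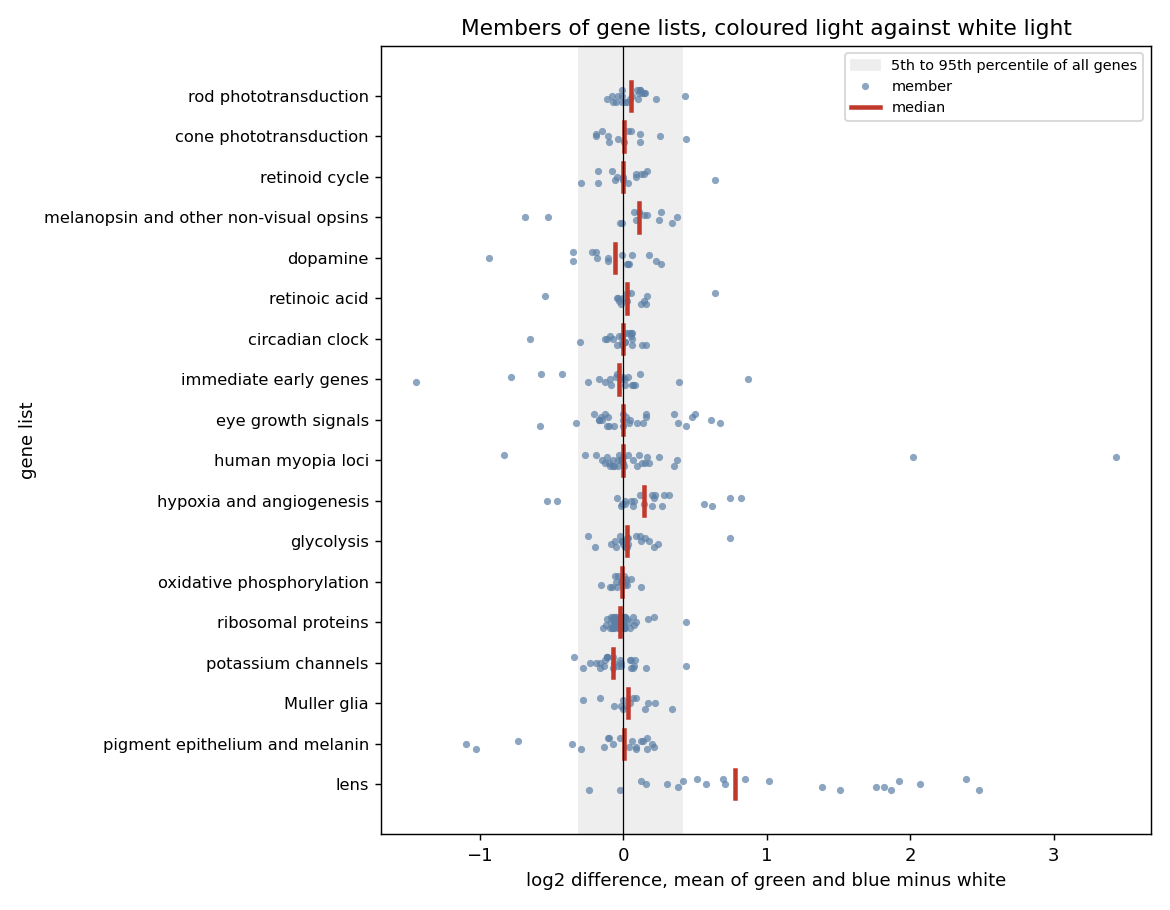
Each blue point is a list member's log2 difference, coloured mean minus white, on the horizontal axis; red bars are list medians and the grey band holds the 5th to 95th percentile of all genes. The lens list has a median of 0.78, to the right of every other list shown, and the hypoxia list a median of 0.14.

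Markers of the neural and glial cell types divided close to evenly. Of those tested, 8 of 16 bipolar, 9 of 18 amacrine, 10 of 17 ganglion and 3 of 8 horizontal cell genes lay higher under coloured light, with medians of -0.01, 0.00, 0.01 and -0.03. Otx2, a transcription factor of photoreceptors, bipolar cells and pigment epithelium, differed by 0.14 ± 0.06, and Tpm3, a tropomyosin, by 0.13 ± 0.06 without overlap. Müller glia, the radial support cells of the retina, had 8 of 14 genes higher, with Crym, a thyroid hormone binding protein, at 253 ± 43.3 CPM under coloured light and 199 ± 20.2 CPM under white light (SD, n = 6 and n = 3). Dkk3, a secreted protein of the same list, differed by 0.22 ± 0.08 on the log2 scale. Astrocyte genes lay higher in 3 of 5 cases, with a median of 0.02, and Gja1, the gap-junction protein of astrocytes, differed by -0.31 ± 0.13, with -0.62 for green and -0.01 for blue. Microglial genes lay higher in 5 of 14 cases, with a median of -0.05, and Müller glia had a median of 0.03. Aif1, a microglial calcium-binding protein, differed by -0.41 ± 0.22. Both blood cell markers tested lay lower (median -0.18), and 6 of 11 genes of sclera, choroid and fibroblasts lay higher (median 0.01).

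Potassium channel, chaperone and antioxidant genes lay more often below white than above it, and calcium and sodium channel genes did not. Of 26 potassium channel genes, 8 lay higher and 18 lower, with a median log2 difference of -0.07 and 1 member at an unadjusted p under 0.05. The median was 0.01 for green minus white and -0.12 for blue minus white. Kcnj14, the member of smallest p, differed by -0.17 ± 0.06, and Kcnj10, the main potassium channel of Müller glia, by -0.28 ± 0.15. Of 18 chaperone genes, 5 lay higher, and of 24 antioxidant genes 9 did, with medians of -0.04 and -0.03 and no member at an unadjusted p under 0.05 in either list. Calcium and sodium channel genes lay higher in 13 and lower in 11 of 24 cases, with a median of 0.00. Cacna1h, a T-type calcium channel, differed by -0.17 ± 0.07. Cacna1f, the calcium channel of the photoreceptor terminal, differed by 0.21 ± 0.07, with 674, 786 and 698 CPM under green light, 588, 589 and 548 CPM under blue light, and 551, 518 and 605 CPM under white light. The green libraries lay above all others, and blue and white overlapped. Ribbon synapse genes lay higher in 8 of 19 cases (median -0.02).

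Glutamate receptor and transporter genes lay higher in 15 of 26 cases (median 0.01), with the receptor subunit Grin3a at 0.40 ± 0.18 and the transporter Slc1a1 at 0.22 ± 0.12. GABA and glycine genes lay higher in 9 of 24 cases (median -0.04), with the glycine receptor subunit Glra1 at -0.17 ± 0.09. Collagen and matrix genes lay higher in 13 of 24 cases (median 0.04), and the basement membrane collagens Col4a1 and Col4a2 differed by 0.42 ± 0.20 and 0.17 ± 0.09. Usher and tip-link genes lay higher in 8 of 14 cases (median 0.01), Hippo pathway genes in 11 of 19 (median 0.02) and housekeeping genes in 7 of 13 (median 0.01).

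Lens genes differed most as a list. Of 22, 20 lay higher under coloured light, with a median log2 difference of 0.78 against 0.00 for all genes, and 11 had an unadjusted p under 0.05, all higher. Crystallins are the main proteins of the lens, and some are also made in the retina; the part of lens cells in these values was not tested. Cryba4 was at 4.08, 5.49 and 4.74 CPM under green light, 5.65, 2.35 and 5.69 CPM under blue light, and 0.309, 2.96 and 0.402 CPM under white light. White library 2 was high and blue library 2 low, so the sides met. Crybb1 did not overlap, with 0.556 to 1.37 CPM over the coloured libraries and 0, 0.477 and 0.0643 CPM in the white libraries. Cryba2 differed by 1.39 ± 0.40 on the log2 scale, with overlap. Crygs was at 6.09, 9.18 and 7.23 CPM under green light, 6.71, 3.06 and 9.07 CPM under blue light, and 0.486, 5.01 and 0.531 CPM under white light. The summed level of the list was 109 to 165 CPM over the coloured libraries and 73.0, 128.5 and 88.9 CPM in white libraries 1 to 3. Without white library 2, edgeR called Cryba4, Crygs and LOC101788254. White library 2, whose lens sum lay within the coloured range, had 0 counts of LOC101788254. A link between this locus and the lens genes was not tested.

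Genes of the retinal pigment epithelium, by contrast, varied within each side. Of 20, 10 lay higher and 10 lower, with a median of 0.01. The median was -0.32 for green minus white and 0.20 for blue minus white, of opposite sign. The summed level of the list was 538 to 1103 CPM over the coloured libraries and 602 to 1097 CPM over the white libraries. Rpe65, the isomerase of the visual cycle, was at 14.4, 102 and 7.76 CPM under green light, 61, 63.8 and 98.6 CPM under blue light, and 44.9, 144 and 15.1 CPM under white light. With the mean log2 level of the pigment epithelium list, not its sum, as a covariate, LOC101788254 kept its call (edgeR adjusted p = 0.0285). The part of pigment epithelium in its values was not tested.

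**Figure D5:**
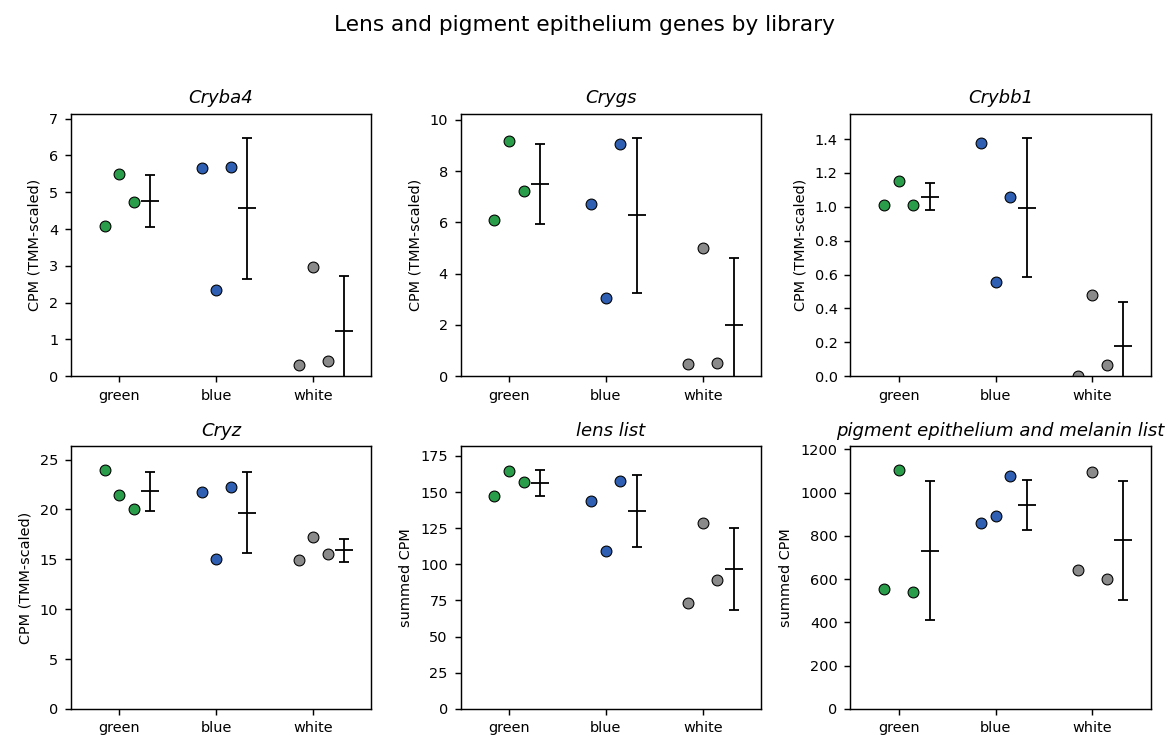
Cryba4, Crygs, Crybb1 and Cryz, from the lens list (CPM), and the summed CPM of the lens list and of the pigment epithelium list, by library under green, blue and white light, with mean ± SD of 3 libraries; SD bars that would reach below 0 are cut at 0. White library 2 is the highest white library in every lens panel, and the pigment epithelium sums overlap between all 3 lights.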

How the data were processed

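RNA was extracted with Trizol from frozen retinas and sequenced paired-end on an Illumina HiSeq 2500, per the labels' protocols. The authors deposited whole-number counts per gene, per the file headers; aligner, counter, strand setting and build: not given in the sources used here. No other columns of per-sample values are in the table. Low counts favour multiples of 4 (2014 values equal 4 and 472 equal 3).

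All 9 libraries entered a fit in edgeR 4.0.16 (R 4.3.3) with light as the only term, TMM scaling and filterByExpr (minimum count 10, total 15); 4493 genes were removed. P-values were adjusted by Benjamini-Hochberg over 15469 genes, with a threshold of 0.05. The log2 difference averages green and blue on the log2 scale, so it can depart from the ratio of the CPM means, as for Klf4. The SE is the size of the log2 difference divided by the square root of the F value of edgeR's test. The common coefficient of variation was 17.68%. A count of 0 allows up to 0.0385 to 0.0483 CPM per library (3 counts, counting error only). Libraries are numbered in order of deposition, and the numbers pair nothing.

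The text names the genes called, then genes with a symbol, at least 1 CPM and no overlap, by smallest p up to 24, then members of 40 lists (called, or 2 of smallest p; named if p is under 0.1), and fixed genes. Vegfa, Cryba4, Crygs, Cryz, P4ha2 and Prss56 were named after their values were seen. A fixed gene is not reported here. Members and lists were chosen with earlier results of these data known. DESeq2 1.42.0 and limma 3.58.1 gave alternatives. 18734 of 19962 identifiers matched RefSeq names.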

Additional observations from a re-analysis of the deposited data

Results flagged for a closer look

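Among 83 values examined over the 6 coloured libraries, 7 had a library whose gap to the next exceeded Dixon's 95% critical value for 6 values; chance flags about 1 in 20. Lhfpl5 stood at 67.45 CPM in green library 2, against 60.1 CPM in the next library. Prkd1 stood at 44.82 CPM in blue library 1, against 39.8 CPM. Ttc16 stood at 1.824 CPM in green library 2, against 1.23 CPM. Vipr2 stood at 38.26 CPM in blue library 3, against 31.9 CPM. The G-protein subunit gene Gngt1 stood at 267.6 CPM in blue library 1, against 208 CPM. Sod3, an extracellular superoxide dismutase, stood at 3.296 CPM in green library 3, against 1.54 CPM. The proteoglycan gene Dcn stood at 0.2934 CPM in blue library 3, against 0.108 CPM, both near the floor. No gene followed here was called by edgeR between green and blue light.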

How the results depend on the processing

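The count of genes called between coloured and white light, 1 in edgeR, was 0 with a minimum of 5 CPM (LOC101788254 lies below it), 0 with voom, 0 with voom and the animal label as a block, 0 after dividing counts by 4, 4 with the "-B" suffix as a covariate, 10 without both "-B" libraries, 9 without both R-23 libraries and 25 with DESeq2. Leaving out each library in turn gave 0 to 7. The counts of 10, 9 and 7 came from fits without white library 3, where both remaining white libraries share an animal label. The count stayed at 1 with DESeq2 size factors, upper-quartile scaling, no filter, sums per animal label, the pigment epithelium covariate and the 2 groups alone. The green minus blue count, 0 in edgeR, was 41 with DESeq2, 1 with the suffix covariate, 1 without both R-23 libraries and 0 to 4 with a library left out. The 359 genes without overlap became 1676 with sums per animal label, 1512 without both "-B" libraries, 1626 without both R-23 libraries and 472 to 1250 with a library left out; fewer samples overlap less by construction. The R-23 settings and most settings for overlap and lists were chosen after seeing the data.

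Of 82 genes followed, 78 kept their direction in every setting. Gjd2 reversed to -0.0013 with no filter, -0.0023 with voom and the block, -0.0081 with the suffix covariate, -0.050 without both "-B" libraries, -0.079 without both R-23 libraries, and lay between -0.054 and 0.048 with a library left out. Egr1 reversed to -0.034 with voom, -0.077 with the block, -0.035 with the suffix covariate, -0.35 without both R-23 libraries, and lay between -0.21 and 0.25 with a library left out. Per1 reversed to -0.0080 with the suffix covariate and lay between -0.032 and 0.042 with a library left out. Rpe65 reversed to 0.12 with the pigment epithelium covariate and lay between -1.25 and 0.89 with a library left out, the higher value without white library 2. The cause was not tested. The lens median ranged from 0.42 to 1.33 and the hypoxia median from 0.06 to 0.19. No paired analysis was run because each animal label occurs under only 1 light. Whether the labels that contain R-23, under blue and under white light, name the same animal is not given. Depth limits genes near the floor of a library, such as Dcn.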

Other observations

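The genes in these paragraphs were chosen after their values were seen, and no explanation was tested. LOC111758275, a protein-coding locus without a symbol, was at 4.44, 8.73 and 10.7 CPM under green light, 4.77, 10.1 and 7.85 CPM under blue light, and 1.81, 2.2 and 1.11 CPM under white light, with no overlap and a log2 difference of 2.18 ± 0.35 (SE; edgeR adjusted p = 0.309). Nfasc, a cell adhesion protein of the axon initial segment, was at 488, 223 and 474 CPM under green light, 427, 461 and 430 CPM under blue light, and 183, 167 and 267 CPM under white light, a log2 difference of 1.02 ± 0.23 (edgeR adjusted p = 0.689).

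Prss56, a serine protease gene linked to small eyes in humans, was at 192 CPM in green library 2 and 179 CPM in blue library 3, and between 11.3 and 33.1 CPM in the other coloured libraries; the white libraries were at 19.6, 18.5 and 18.4 CPM.

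In several genes the white libraries of animal 6 stood apart from white library 3, which lay with the coloured libraries. Mlc1, an astroglial membrane protein, was at 7.90 to 16.0 CPM over the coloured libraries and 34.4, 42.0 and 7.82 CPM under white light. Wbp1l was at 57.1 to 81.5 CPM over the coloured libraries and 32.0, 32.1 and 72.8 CPM under white light. Tagap was at 2.23 to 4.63 CPM over the coloured libraries and 0.236, 0.260 and 4.62 CPM under white light.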
